A study of Mus musculus with 81 samples.

Results

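RIIIS/J is a classical inbred mouse strain, and its bone marrow neutrophils were compared with those of 34 other classical title groups. Its members were chosen by title, which gave 2 arrays of the 81 in the series, and the other classical groups held 69 arrays. Each sample was a pool of mice of one strain from which cells positive for CD11b and Ly6G, the surface pair that marks granulocytes, were sorted, and no treatment is labelled. All were labelled as males aged 6 weeks. The label of both tested arrays gave the background RIIIS/J. The comparison groups were 129S1/SvImJ, A/J, AKR/J, C3H/HeJ, C57BL/6J, C57BL/10J, C57BLKS/J(662), C57L/J (668), CBA/CaJ, CBA/J, CE/J, DDY/JclSidSeyFrkJ, FVB/NJ, KK.Cg-Ay/J, LGJ, LP/J(676), MA/MyJ, MRL/MpJ, NOD/ShiLtJ, NON/ShiLtJ, NOR/LtJ, NZB/BINJ, NZW/LacJ, P/J, PL/J, SEA/GnJ, SJL/J, SM/J and SWR/J, and 5 groups titled BPL, BTBR, Balb, C57BR and DBA2, whose background label names another strain than the title and which are named by title here. The groups held 2 arrays apart from C57BL/6J, with 5, and from SWR/J and FVB/NJ, with 1. A replicate was a separate pool of mice, since the design text calls the samples biological replicates.

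Neutrophils are short-lived phagocytes that mature in the bone marrow, where they fill successive sets of granules with antimicrobial proteins and lose the ability to divide. They carry many activating and inhibitory surface receptors of the C-type lectin, CD200 receptor and Fc receptor families, which set the threshold for activation. RIIIS/J is known for a low plasma level of von Willebrand factor, traced to a switch of the glycosyltransferase gene B4galnt2 from gut epithelium to blood vessel endothelium, and for its own histocompatibility haplotype.

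The label of the cells was checked against marker genes, which were at the level of the panel. The 12 neutrophil markers averaged 13.41 and 13.37 log2 intensity units on the RIIIS/J arrays, against group averages of 13.27 to 13.41 in the other classical strains. The 2 RIIIS/J arrays correlated at 0.9965 over all probe sets, where other pairs of arrays of one strain ran from 0.9757 to 0.9969 with a median of 0.9946. Correlations of RIIIS/J arrays with arrays of the other classical strains ran from 0.9594 to 0.9900. RIIIS/J had the highest of the 35 group means at 544 probe sets and the lowest at 1035, together 6.34% of the 24922 probe sets, which placed it at position 10 of the 35 groups. The split between highest and lowest turned with the scaling, at 839 highest and 633 lowest with a common array median, 566 and 586 after quantile normalization, and 399 and 164 at a mean of 7 units or more. NZB/BINJ stood apart from the rest of the panel, with the highest or lowest mean at 31.4% of probe sets.

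RIIIS/J neutrophils were set apart from the classical panel by few genes with large differences. Niban1, a stress-responsive regulator of translation, was 34.8-fold lower in RIIIS/J than in the other strains, and the prelamin A protease gene Zmpste24 was 5.57-fold lower in RIIIS/J. The hyaluronan scavenger receptor gene Stab2, the hedgehog-interacting protein-like gene Hhipl2 and the sperm calcium channel subunit gene Catspere2 were between 8.73-fold and 11.7-fold higher. With the strain as the replicate, which asks whether RIIIS/J lies outside the spread among the other 34 strains, limma called 29 of 24922 probe sets (0.116%) at an adjusted p under 0.05. Of these, 23 were higher in RIIIS/J (0.0923%) and 6 were lower (0.0241%). The test takes the other 34 strains as independent, and kinship among them, as between CBA/CaJ and CBA/J, was not modelled. Of the higher calls, 6 are probe sets that the platform assigns to the same 7 genes, with nearly equal values (differences of 2.26 to 2.37, and 7.71 to 7.77 on the second RIIIS/J array), so they are close to 1 signal counted 6 times. At a difference of at least 1 log2 unit, which is 2-fold, 18 higher calls (0.0722%) and the 6 lower ones were left. RIIIS/J had the highest or lowest of the 35 group means at all 29, and at 25 of them both of its arrays lay beyond every array of the other classical strains. Over all probe sets, both arrays lay above every other classical array at 83 (0.333%) and below at 44 (0.177%). Leaving out NZB/BINJ gave 27 higher and 5 lower calls. Resting on 1 RIIIS/J array, the test gave 55 calls without replicate 1 and 44 without replicate 2, and a minimum mean of 7 units over the strains, which drops genes bright in RIIIS/J alone, left 2 higher and 4 lower.

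**Figure D1:**
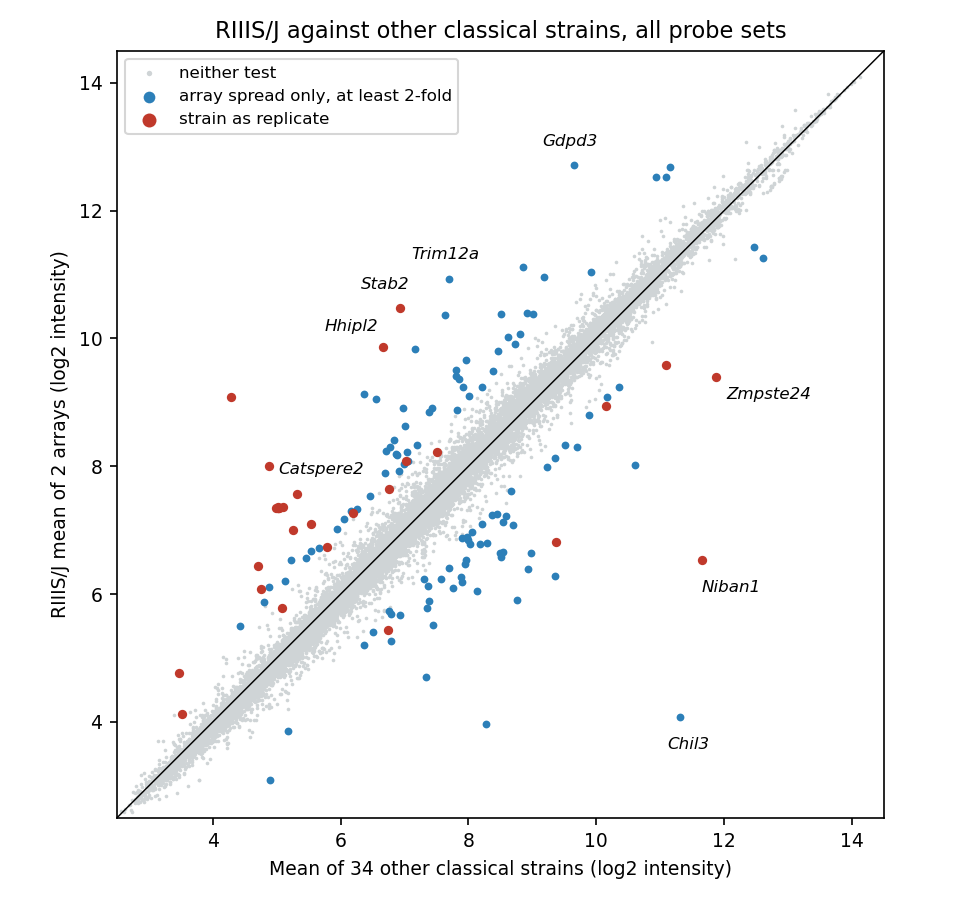
Each point is 1 probe set, with the mean of the 34 other classical group means on the x axis and the mean of the 2 RIIIS/J arrays on the y axis, both in log2 intensity units, and the line marks equality. Red points are the 29 calls with the strain as the replicate, blue points were called against the array spread only with at least a 2-fold difference, and grey points are the rest, with Niban1 and Chil3 farthest below the line among the labelled genes.

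Niban1, on chromosome 1, is induced by endoplasmic reticulum stress and had the largest lower difference of the strain test. Its intensity was 6.54 and 6.52 log2 units on the RIIIS/J arrays, against a lowest of 10.91 in AKR/J, a median of 11.73 and a highest of 11.94 over the other 34 strains. The groups were separated by more than 4 units with nothing between them. The difference was -5.12 ± 0.24 log2 units (SE), 34.8-fold, with an adjusted p of 4.88e-18 in limma with the strain as the replicate. The 5 wild-derived strains of the series, which took no part in the test, ranged from 11.37 to 11.85 and so lay with the classical panel. Array probes of this type follow the C57BL/6J reference sequence, and a variant under a probe cannot be told apart here from a lower transcript level.

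The window before the annotated start of Niban1 is shown because no other gene had so large a call below the panel. It lies at chr1:151571123-151571372 of GRCm38.p6 on the plus strand and comes from the RefSeq table of that build, which describes the C57BL/6J reference and not RIIIS/J. Capitals mark GAGGAA, the core letters bound by the myeloid factor PU.1, searched on both strands. The Niban1 window held 1 match, 110 bases before the start, and none to TTGCNNAA, a C/EBP-type motif. Of all 32536 windows of this length in the table, 23.4% held GAGGAA and 9.6% held TTGCNNAA on either strand.
Niban1: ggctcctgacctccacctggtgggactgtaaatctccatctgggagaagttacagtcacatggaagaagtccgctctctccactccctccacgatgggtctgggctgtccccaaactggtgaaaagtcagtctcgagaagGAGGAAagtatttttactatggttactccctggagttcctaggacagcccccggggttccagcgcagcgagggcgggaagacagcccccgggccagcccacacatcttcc

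The 2 relatives of Niban1 did not share its difference. Niban2, on chromosome 2, was 7.60 and 7.69 on the RIIIS/J arrays, against 6.52 to 7.16 with a median of 6.75 in the other strains, and it passed the strain test in the opposite direction to Niban1 (0.89 ± 0.13, adjusted p of 8.61e-05 in limma). Niban3 averaged 8.04 ± 0.06 in RIIIS/J (SD, n = 2), against 7.31 to 8.33 in the other strains, inside their range and not called (0.13 ± 0.30). Niban3 was named after its values were seen. Around Niban1, the neighbours Swt1, Rnf2 and Edem3 differed by 0.42, 0.37 and 0.41 against the array spread and 1700025G04Rik by -0.31, none of them past the strain test.

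The strain test also called 3 named genes with a mean of at least 7 units in the other strains lower in RIIIS/J. Zmpste24, the metalloprotease that trims prelamin A, had 9.31 and 9.48 log2 units in RIIIS/J, against 11.03 to 12.53 in the others (-2.48 ± 0.38, adjusted p of 1.93e-04 in limma). Tmem123, which encodes a mucin-like surface protein, had 9.51 and 9.65 in RIIIS/J, against 10.73 to 11.48 with a median of 11.08 in the others (-1.51 ± 0.17, adjusted p of 5.58e-07). For each of these genes the brighter RIIIS/J array was over 1 unit below the dimmest of the other strains. The adhesion molecule gene Ncam1 lay closer to the panel, with 8.85 and 9.02 in RIIIS/J and 9.57 to 10.67 in the others (-1.21 ± 0.26, adjusted p of 0.0458). That call ended under 5 of the alternatives, with adjusted p between 0.0512 and 0.0807. Rrp1b, under 7 units in both groups and named after its values were seen, had 5.51 and 5.37 in RIIIS/J, against 6.25 to 7.87 in the others (-1.30 ± 0.27, adjusted p of 0.0257).

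In all, 10 genes made up the higher side among those at 7 log2 units or more in RIIIS/J. Hhipl2, a relative of the hedgehog-interacting protein gene, had 10.08 and 9.64 log2 units in RIIIS/J, against 6.44 to 6.96 with a median of 6.66 in the other strains, a 9.22-fold difference (3.20 ± 0.14, adjusted p of 2.7e-19 in limma). Catspere2, which encodes an auxiliary subunit of the sperm calcium channel, had 8.12 and 7.90 in RIIIS/J, against 4.60 in 129S1/SvImJ to 5.11 in KK.Cg-Ay/J with a median of 4.89 (3.13 ± 0.13, adjusted p of 1.8e-19). Both genes had a narrow spread over the other 34 strains, and neither had another classical strain past the midpoint between RIIIS/J and the median. A probe set that the platform assigns to a pair of genes, chosen after its values were seen, had the largest higher difference, with 9.15 and 9.01 in RIIIS/J against 3.99 to 5.03 in the others (4.79 ± 0.20, adjusted p of 1.8e-19). Among the wild-derived strains it had 8.42 in PWD/PHJ and 4.26 to 5.21 elsewhere, and Catspere2 had 8.28 in PWD/PHJ and 4.89 to 5.53 elsewhere. Whether this probe set and that of Catspere2 read the same transcript was not examined.

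Stab2 differed in kind, because RIIIS/J shared its high level. It encodes a scavenger receptor for hyaluronan that is best known from sinusoidal endothelium. Its intensity was 10.45 and 10.49 in RIIIS/J, against a lowest of 6.59, a median of 6.73 and a highest of 10.44 in the other strains. SM/J had 10.44 and the group titled DBA2 had 9.40, and no further strain lay past the midpoint between RIIIS/J and the median. The difference of 3.55 ± 0.76 had an adjusted p of 0.0351 in limma, and the call ended under 3 alternatives, with adjusted p between 0.0527 and 0.0618.

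The next 4 higher genes encode membrane proteins. The chemokine receptor gene Ccr9, which answers Ccl25 of gut and thymus, had 7.46 and 7.68 in RIIIS/J, against 4.99 to 6.18 with a median of 5.26 in the others (2.25 ± 0.25, adjusted p of 5.09e-07 in limma). Ms4a6c, of the membrane-spanning 4A protein family, had 7.12 and 6.90 in RIIIS/J, against 4.87 to 6.16 with a median of 5.22 (1.75 ± 0.25, adjusted p of 8.61e-05). Cd200r2, of the CD200 receptor family, had 7.15 and 7.06 in RIIIS/J, against 5.10 to 6.00 with a median of 5.54 (1.57 ± 0.21, adjusted p of 2.92e-05). The ranges did not overlap at any of these genes, which the rule of choice required. Cd22, an inhibitory receptor that binds sialic acid and is best known from B cells, had 7.03 and 7.52 in RIIIS/J, against 5.83 to 6.95 with a median of 6.15 (1.08 ± 0.22, adjusted p of 0.0149). Its highest other strain, NZB/BINJ, lay just under the dimmer RIIIS/J array, and without the brighter RIIIS/J array, replicate 2, the adjusted p was 0.147.

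Markers of other cells stand beside these genes as measured. The 8 measured B cell markers averaged 6.04 and 6.00 on the RIIIS/J arrays, against 5.97 to 6.45 in the other strains, the third lowest of the 35, and Cd79b was lower against the array spread (-0.32). The 9 monocyte and macrophage markers averaged 7.07 and 7.11, against 6.68 to 7.61, with Adgre1 (0.99) and Ccr2 (0.60) higher against the array spread, while the other 7 had negative differences that were not called, and the list median was -0.24. The 8 T and NK cell markers averaged 6.60 and 6.70, against 5.96 to 6.78, with Cd3d (1.27) and Cd3g (0.98) higher, while the other 6, Cd3e, Cd4 and Cd8a among them, had negative differences that were not called, and the list median was -0.06. List averages of erythroid, eosinophil, basophil and mast cell, and megakaryocyte markers lay inside the range of the other strains, and no list had a member past the strain test. Of 7 basophil and mast cell markers, 2 were higher against the array spread, with 3 positive and 4 negative differences in all. That list was at position 29 from the lowest of the 35, and the megakaryocyte list, without a call, at position 32. The part of such cells in these differences was not tested, and in bulk samples fewer cells of a type and less RNA per cell cannot be told apart.

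The last genes completed the higher side. Zmym6, a zinc finger gene, had 8.01 and 8.16 in RIIIS/J, against 6.67 to 7.59 with a median of 7.03 in the others (1.06 ± 0.19, adjusted p of 0.00196 in limma). Dip2a, a disco-interacting protein homologue, had 8.11 and 8.33, against 7.29 to 7.82 with a median of 7.49 (0.72 ± 0.13, adjusted p of 0.00467). Niban2, given above, made up the rest. Genes under 7 units in RIIIS/J were called too, and Aff3, Rimklb and Cd302 are named here after their values were seen. Aff3 had 6.67 and 6.81 in RIIIS/J, against 5.53 to 6.27 in the others (0.945 ± 0.13, adjusted p of 2.92e-05 in limma). Its mean was 7.11 in the wild-derived MSM/Ms and 5.71 to 5.91 in the other wild-derived strains. Rimklb had 5.43 and 6.14 in RIIIS/J, against 4.87 to 5.34 (0.71 ± 0.11, adjusted p of 3.22e-04). Cd302, a C-type lectin receptor gene, had 6.66 and 6.22 in RIIIS/J, against 4.38 to 5.06 in the other classical strains (1.73 ± 0.16, adjusted p of 6.71e-09). The 5 wild-derived strains had Cd302 means between 6.47 and 7.43, all above each of the other 34 classical strains.

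**Figure D2:**
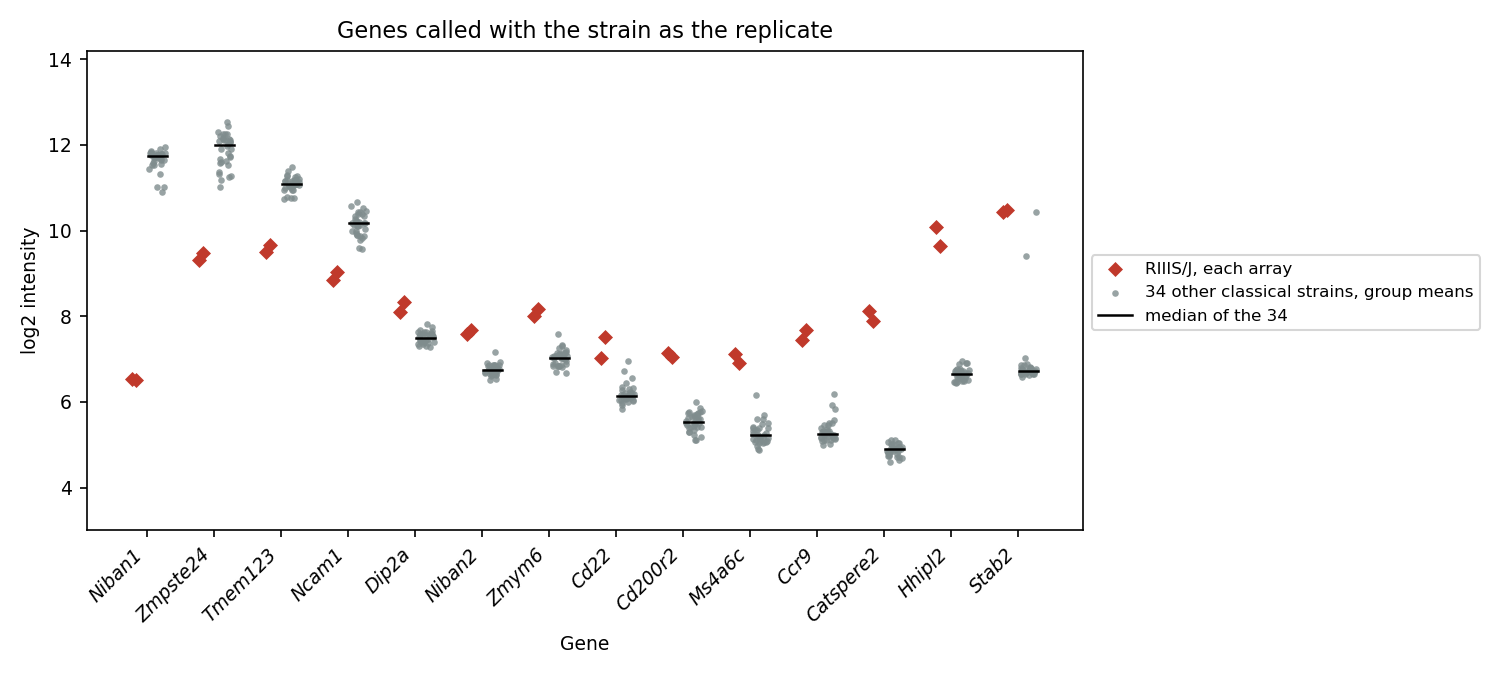
Log2 intensity of the 14 named genes called with the strain as the replicate, with each RIIIS/J array as a red diamond on the left of its gene and the 34 other classical group means in grey on the right, and a bar at their median. Both red points lie beyond every grey point at all 14 genes because the genes were chosen for that, and the narrowest gap is at Stab2, where SM/J is at 10.44.

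Many more genes differed between RIIIS/J and the average classical strain at levels that some other strains shared. Against the spread between arrays of one strain, limma called 1357 of 24922 probe sets at an adjusted p under 0.05 (5.44%), 809 higher in RIIIS/J (3.25%) and 548 lower (2.2%). With a difference of at least 1 there were 135 (0.542%), of which 74 were higher (0.297%) and 61 lower (0.245%), and they stood for 98 genes. RIIIS/J was highest or lowest of the 35 at 61 of the 135. At 119 of them at least 1 other strain lay past the midpoint between RIIIS/J and the median, and at 69 at least 5 did. This test takes no account of the spread among strains. The strain test shared 24 probe sets with these 135, and the 16 genes named from here on are from the rest.

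Chil3, on chromosome 3, encodes the chitinase-like protein Ym1 of specific granules and had the largest difference of all. Its intensity was 3.77 and 4.39 in RIIIS/J, against a lowest of 4.54, a median of 11.94 and a highest of 13.02 in the other strains. MA/MyJ (4.54), NZW/LacJ (4.64) and NZB/BINJ (5.02) shared the low level. The remaining strains all lay past the midpoint on the high side, so the panel split into low and high strains rather than leaving RIIIS/J alone. The difference was -7.22, with an SE of 0.13 and an adjusted p of 1.2e-37 against the array spread, and an SE of 2.12 and an adjusted p of 0.552 with the strain as the replicate. The wild-derived strains also fell on both sides, with 12.33 in CAST/EiJ and 10.91 in WSB/EiJ, against 4.26 in JF1/Ms, 4.71 in PWD/PHJ and 5.30 in MSM/Ms.

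The window before Chil3, at chr3:106167565-106167814 of GRCm38.p6 on the minus strand, is shown because this gene had the widest difference. It held neither GAGGAA nor TTGCNNAA.
Chil3: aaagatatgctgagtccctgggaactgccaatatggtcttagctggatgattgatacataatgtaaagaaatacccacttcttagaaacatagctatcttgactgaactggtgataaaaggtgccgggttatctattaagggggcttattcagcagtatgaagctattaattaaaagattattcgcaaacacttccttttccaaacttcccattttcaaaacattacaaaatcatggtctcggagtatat

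Among the higher genes, Gdpd3, a lysophospholipase D gene, had 12.57 and 12.85 in RIIIS/J, against 8.31 to 12.50 with a median of 8.87 in the others (3.06, SE 0.15 over arrays, adjusted p of 2.65e-21 in limma). RIIIS/J was the brightest of the 35, and 9 other strains led by 129S1/SvImJ lay past the midpoint. Trim12a and Trim30d, interferon-inducible tripartite motif genes of chromosome 7, had 11.01 and 10.87, and 9.14 and 9.11, in RIIIS/J, against medians of 6.48 and 4.80 in the others. Past the midpoint lay 11 other strains for Trim12a and 13 for Trim30d, C57BL/6J among them at both genes. The genes between them in the reference order, Trim12c (-0.17) and Trim30a (0.14), were not called. Tspan15, a partner of the protease ADAM10, had 9.03 and 9.08 in RIIIS/J, against a median of 6.33, and only CE/J (11.20) and LGJ (8.84) were also past the midpoint. The ganglioside synthase gene St8sia1 had 9.77 and 9.92, against a median of 5.87, with 12 other strains past the midpoint, and BC018473 had 10.33 and 10.40, against a median of 5.76, with 11.

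Among the lower genes, Ifi27l2a, an interferon-inducible gene, had 5.90 and 5.91 in RIIIS/J, the lowest of the 35, against 6.49 to 10.46 with a median of 8.80 in the others (-2.84, SE 0.24 over arrays, adjusted p of 1.56e-12 in limma). Its other low strains were SEA/GnJ and P/J. The aminopeptidase B gene Rnpep averaged 8.02 in RIIIS/J, against a median of 10.84, and MA/MyJ, NZB/BINJ and P/J were as low. Smpd5, a sphingomyelinase gene, had 6.44 and 6.74 in RIIIS/J, the lowest of the 35, against 6.94 to 9.21, with NOD/ShiLtJ, NON/ShiLtJ, DDY/JclSidSeyFrkJ and NOR/LtJ also low. Zfp971, Dnah8, Elovl7 and Gm4759 differed by -2.63, -2.53, -2.07 and -1.92, with 10, 10, 16 and 11 other strains past the midpoint. Olfml2b, with 6.06 and 6.14 in RIIIS/J, was the lowest of the 35, but its other strains had a median of 6.32, close to RIIIS/J, and a highest of 11.62.

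**Figure D3:**
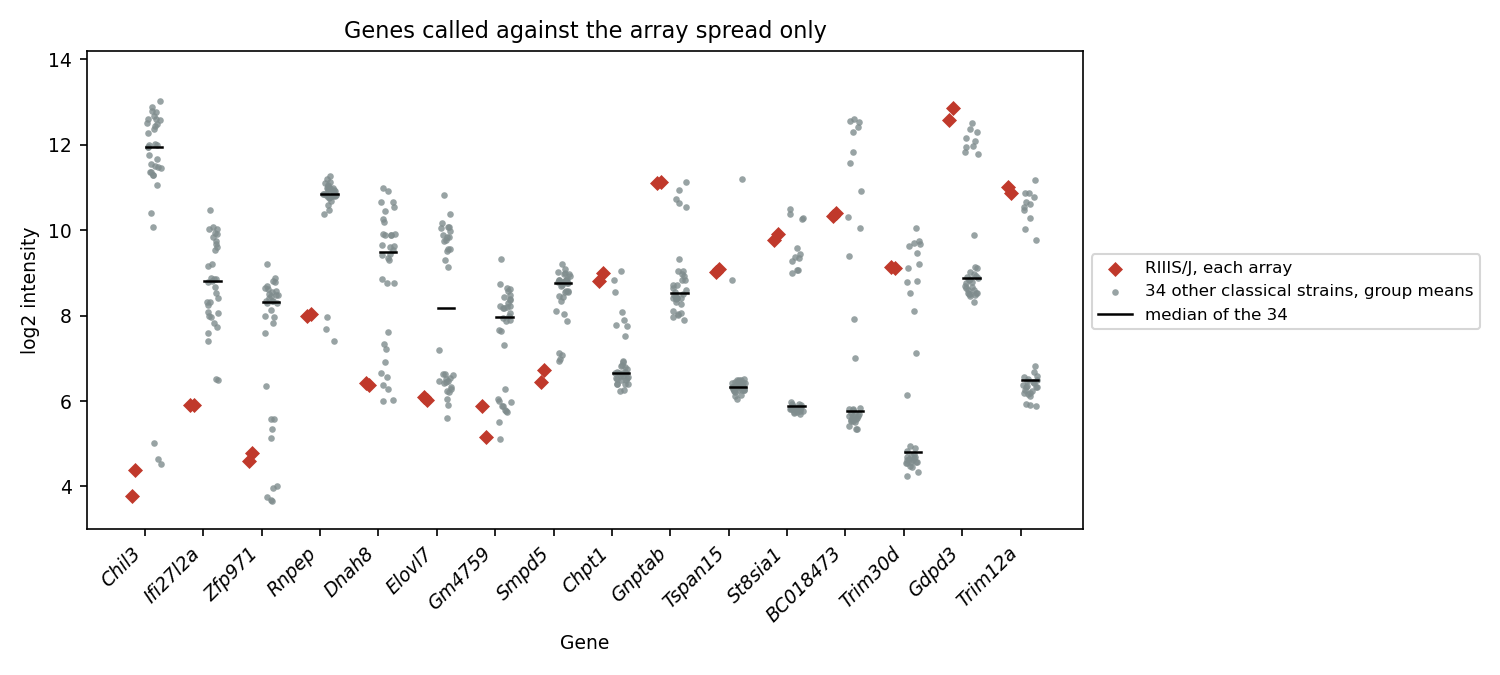
Log2 intensity of the 16 named genes called against the array spread only, with each RIIIS/J array as a red diamond on the left of its gene and the 34 other classical group means in grey on the right, and a bar at their median. Grey points reach or approach the RIIIS/J level at most of these genes, and Chil3 shows 3 low grey points against a median of 11.94.

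Some called genes lie next to one another, among them 3 C-type lectin receptor genes of chromosome 6. The Clec4a genes encode the dendritic cell immunoreceptor family, whose inhibitory members carry a cytoplasmic inhibitory motif. Clec4a1 had 8.26 and 8.33 log2 units in RIIIS/J, against 6.10 to 7.70 with a median of 6.72 in the others (1.53 ± 0.34, adjusted p of 0.0609 with the strain as the replicate in limma, and 3.24e-08 against the array spread). Clec4a3 had 9.55 and 9.79, against 6.81 to 8.89 with a median of 7.96 (1.71 ± 0.49, adjusted p of 0.495 and 1.78e-09 in the same tests). Clec4a4 had 6.20 and 5.98, against 4.44 to 5.28 with a median of 4.73 (1.33 ± 0.20, adjusted p of 1.91e-04 and 4.86e-13). RIIIS/J was the highest of the 35 at all 3, and neither array overlapped the other group means.

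The difference did not extend along the cluster. Clec4b1 (0.05) and Clec4a2 (0.04), the next genes in the reference order, were not called, and Clec4b2 was 6.24 and 6.71 in RIIIS/J, against 6.29 to 10.39 with a median of 7.92, a lower value past the array test only (-1.48). Clec4n (-0.57), Clec4d (-0.14) and Clec4e (-0.05) were not called. Clec4a genes are similar in sequence, and how far their probe sets read one another was not examined.

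The windows before Clec4a1 and Clec4a3 are shown because these neighbours moved together. They lie at chr6:122921598-122921847 and chr6:122952265-122952514 of GRCm38.p6, both on the plus strand, and the table holds 2 starts for Clec4a3, of which the one of lower coordinate is shown. Capitals mark GAGGAA or its reverse complement. Clec4a1 held 2 matches, 187 and 217 bases before the start and both on the minus strand, and Clec4a3 held none, nor did either hold TTGCNNAA.
Clec4a1: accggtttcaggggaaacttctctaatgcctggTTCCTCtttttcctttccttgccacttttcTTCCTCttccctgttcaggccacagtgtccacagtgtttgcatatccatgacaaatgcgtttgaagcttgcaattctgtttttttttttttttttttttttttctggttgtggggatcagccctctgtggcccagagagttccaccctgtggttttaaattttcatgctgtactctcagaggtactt
Clec4a3: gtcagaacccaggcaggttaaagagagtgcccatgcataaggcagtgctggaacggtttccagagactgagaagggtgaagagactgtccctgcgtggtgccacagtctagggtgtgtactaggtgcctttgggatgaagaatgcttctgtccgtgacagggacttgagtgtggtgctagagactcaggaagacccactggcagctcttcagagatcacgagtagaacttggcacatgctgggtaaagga

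Stretches on other chromosomes also held several called genes. They were laid around genes already seen as called and were not found by the rule for runs. That rule named only Clec4a1, Clec4a3 and Clec4a4. On chromosome 10, Gnptab, a subunit of the enzyme that makes the mannose 6-phosphate tag of lysosomal proteins, had 11.10 and 11.14 in RIIIS/J, against 7.89 to 11.12 with a median of 8.53 in the others (2.27, adjusted p of 3.67e-22 against the array spread in limma). Chpt1, a phosphatidylcholine synthesis gene, had 8.82 and 8.99, against 6.23 to 9.05 with a median of 6.67 (1.94, adjusted p of 1.78e-17). Sycp3, which lies between them, was dim but past the strain test (0.60 ± 0.13, adjusted p of 0.0375). Each of Gnptab and Chpt1 had 5 other strains past the midpoint. Stab2 lies on the same stretch, and the 9 measured genes between it and Gnptab were not called in either test.

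On chromosome 16, Cd200r1 (0.65), Cd200r4 (1.08) and Cd200r2 (1.57), which follow one another, were higher against the array spread. Cd200r3 (0.00) was not, and Ccdc80 (0.44) was higher, so 4 of 8 measured genes were called. Of those 4, only Cd200r2 passed the strain test. Cd200r1 averaged 9.78 in RIIIS/J, against a highest of 9.79 in the others, and Cd200r4 averaged 6.21, against a highest of 6.26. Over all probe sets 3.25% were higher and 2.2% lower, and a stretch laid around called genes holds more by its making. On chromosome 4, Oscp1 (1.69), Ago4 (1.18), Ago1 (0.39), Ncdn (0.67) and Zmym6 (1.06) were higher, with uncalled genes between them and Zmym1 lower (-0.47), out of 28 measured. RIIIS/J was above the highest of the other group means on both arrays for Oscp1, with 9.40 and 9.60 against 9.27. In the class I region of chromosome 17, H2-Q2 (-0.32), H2-Q4 (-1.43), H2-Q5 (-0.48) and H2-Q10 (-1.61) were lower against the array spread, as was Tcf19 (-0.74) of the same stretch, none of them past the strain test. These genes are similar in sequence and vary among strains, and how far their probe sets read one another or miss an allele was not examined.

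**Figure D4:**
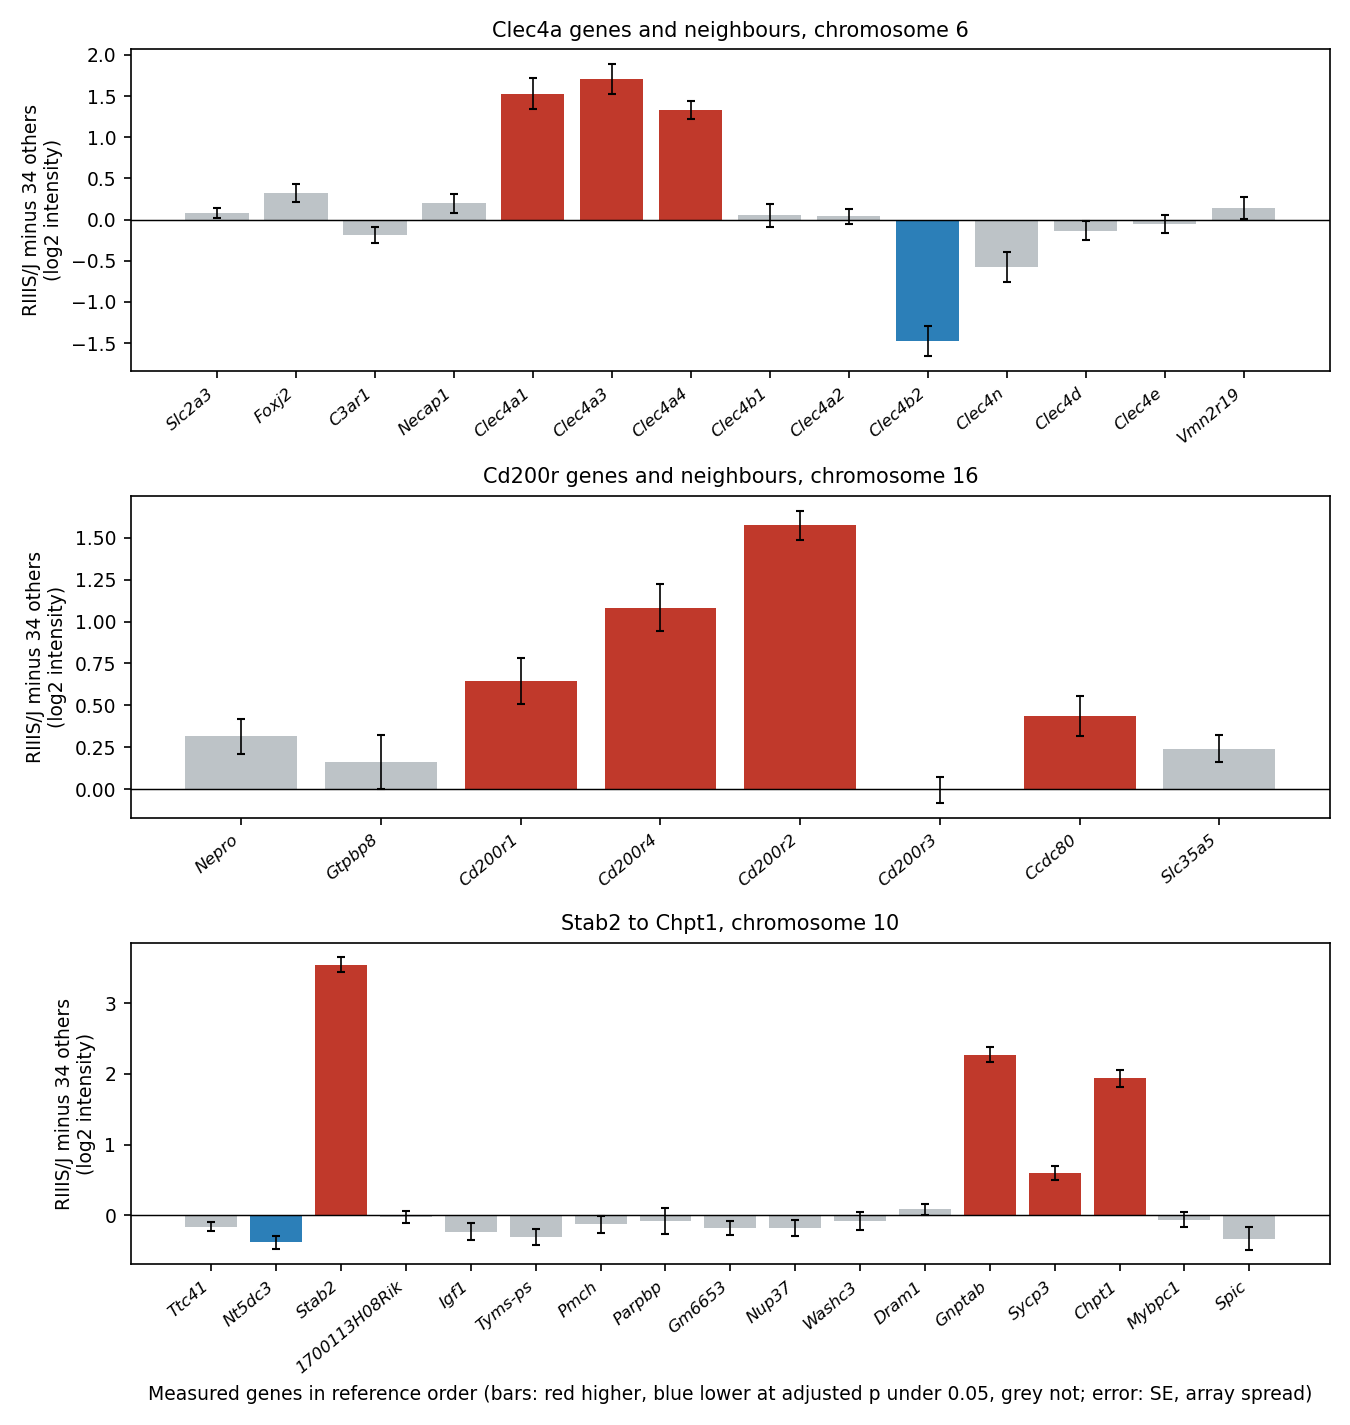
Difference of RIIIS/J from the mean of the 34 other classical strains in log2 intensity units on the y axis for the measured genes of 3 stretches in reference gene order on the x axis, with error bars of 1 SE over arrays. Red bars were higher and blue bars lower at an adjusted p under 0.05 against the array spread, and the 3 red Clec4a bars stand beside grey bars of the same family.

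Granule, oxidase and mature neutrophil genes had few calls, and the largest were Chil3 and Olfm4. With the strain as the replicate, limma called 0 of the 225 distinct genes of the 21 lists. That count is too near the share of 0.116% of all probe sets to say anything of the lists. An unadjusted p under 0.05 in that test was reached by 5 of the 225 and by 737 of all 19752 genes. Over all 24922 probe sets it was reached by 933 (3.74%). Against the array spread, 13 list genes were higher and 27 lower, together 17.8% of the 225, beside 5.44% of all probe sets. With at least a 2-fold difference 3 were higher and 5 lower, 3.56% of the 225, beside 0.542% of all probe sets. These shares are of unlike sets, since the list genes are brighter. A mean of at least 7 units was reached by 176 of the 225, against 8442 of all 19752 genes. No share matched for brightness was taken, so the excess is not read as a property of the lists. The lists were chosen with earlier results of these data known. Of 13 measured specific granule genes, only Chil3 and Olfm4 were lower against the array spread and none was higher, and the median difference was 0.00, beside -0.03 over all genes. Olfm4, a granule glycoprotein gene that marks a subset of neutrophils, had 11.59 and 11.28 in RIIIS/J, against 9.87 to 13.18 with a median of 12.64 (-1.03). Of 9 azurophil granule and progenitor genes, Ms4a3 was lower (-0.63), and Elane (-0.25) and Fcnb (-0.36) were not called. None of 14 gelatinase granule and mature neutrophil genes was called, with differences between -0.12 and 0.13. None of 9 S100 and NADPH oxidase genes and none of 3 stefin A genes was called.

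Cell cycle and interferon-stimulated genes had mostly negative differences. All 17 measured cell cycle genes had a negative difference, with a median of -0.37, beside -0.03 over all genes, and 4 passed the array test, where 2.2% of all probe sets were lower. Those were the helicase subunits Mcm2 (-0.37), Mcm3 (-0.42) and Mcm5 (-0.35) and the mitotic kinase Aurkb (-0.59). With 1 RIIIS/J array left out none passed, but all 17 differences stayed negative, with a median of -0.35 without replicate 1 and -0.38 without replicate 2. The list average was 7.66 and 7.69 in RIIIS/J, against 6.81 in NOR/LtJ to 9.34 in NON/ShiLtJ, at position 13 from the lowest, so other strains lay lower. Of 19 interferon-stimulated genes, 7 were lower and 1 higher against the array spread, with a median of -0.32. The antiviral RNA-binding protein gene Ifit3 had 6.18 and 6.19 in RIIIS/J, against 5.45 to 9.79 with a median of 7.86 (-1.71). Ifit1 (-0.95), Rtp4 (-0.92), Xaf1 (-0.79), Oas1a (-0.74), Oasl1 (-0.70) and Ifit2 (-0.63) were lower as well, and Samd9l (0.59) was higher. With only 1 RIIIS/J array the count of lower genes was 3 without replicate 1 and 4 without replicate 2. The RIIIS/J list average of 8.05 was at position 8 from the lowest of the 35.

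Sensing and receptor lists held calls in both directions against the array spread, to be read beside the 3.25% of all probe sets called higher and 2.2% called lower. The array test sets RIIIS/J against the mean of the other strains, so a called gene can lie well inside the panel. Among 17 pattern recognition genes, Tlr6 (0.89), Tlr8 (0.47) and Nod1 (0.29) were higher, and Cd14 (-0.84), Ly96 (-0.51) and Tlr1 (-0.43) were lower against the array spread. Tlr6 had 9.98 and 9.97 in RIIIS/J, against 8.09 to 10.10 with a median of 9.05. The products of Cd14 and Ly96 take part in lipopolysaccharide recognition, and Cd14 had 7.67 and 7.50 in RIIIS/J, against 6.26 to 10.91 with a median of 8.54. Among 12 inflammasome genes, the sensor gene Nlrp1a (1.13) and the adaptor gene Pycard (0.59) were higher, and Nlrp1b (-0.84) and Naip5 (-0.44) were lower. Naip5 was at position 12 from the lowest of the 35. Pycard, with 8.98 and 9.05 in RIIIS/J, against 7.59 to 8.99, was the highest of the 35. Of 18 chemoattractant and cytokine receptor genes, Il4ra (-0.49) was lower and Ifnar1 (0.26) higher. Of 16 Fc and inhibitory receptor genes, Lilra6 (0.45) was higher and Cd300ld (-0.55) lower. Cd300ld averaged 9.66 in RIIIS/J, against 8.46 to 11.89 in the others, at position 16 from the lowest. No adhesion gene of 11 and no immediate early gene of 12 was called, and Gsr (-0.30), the glutathione reductase gene, was the sole call among 13 redox genes. Gsr averaged 11.64 in RIIIS/J, close to the median of 11.73 in the others. Gbp2b (0.89) was higher among 7 guanylate-binding and immunity-related GTPase genes, Slfn1 (-0.92) was lower among 11 Ifi200 and Schlafen genes, Chil4 (-0.54) was lower beside Chil3 among 6 chitinase family genes, H2-T24 (0.68) was higher and H2-Q2, H2-Q4 and H2-Q10 lower among 8 class I genes, 7 of which had negative differences, and H2-DMa (0.50) was higher among 9 class II genes. H2-T24 averaged 10.50 in RIIIS/J, beside a mean of 9.82 but a median of 10.51 in the others. It was at position 19 from the highest of the 35, so it lay at the middle of the panel.

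Genes for which RIIIS/J is known were near the panel average in these cells. B4galnt2 had 5.52 and 5.44 in RIIIS/J, against 5.37 to 5.86 with a median of 5.64 in the others, and Vwf had 7.09 and 7.06, against 6.80 to 7.39 with a median of 7.04. The class II genes H2-Aa, H2-Ab1, H2-Ea and H2-Eb1 differed by -0.15, -0.17, 0.06 and -0.05. None of these 6 genes was called in either test, where 5.44% of all probe sets passed the array test, and the levels lay inside the range of the other strains at each.

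**Figure D5:**
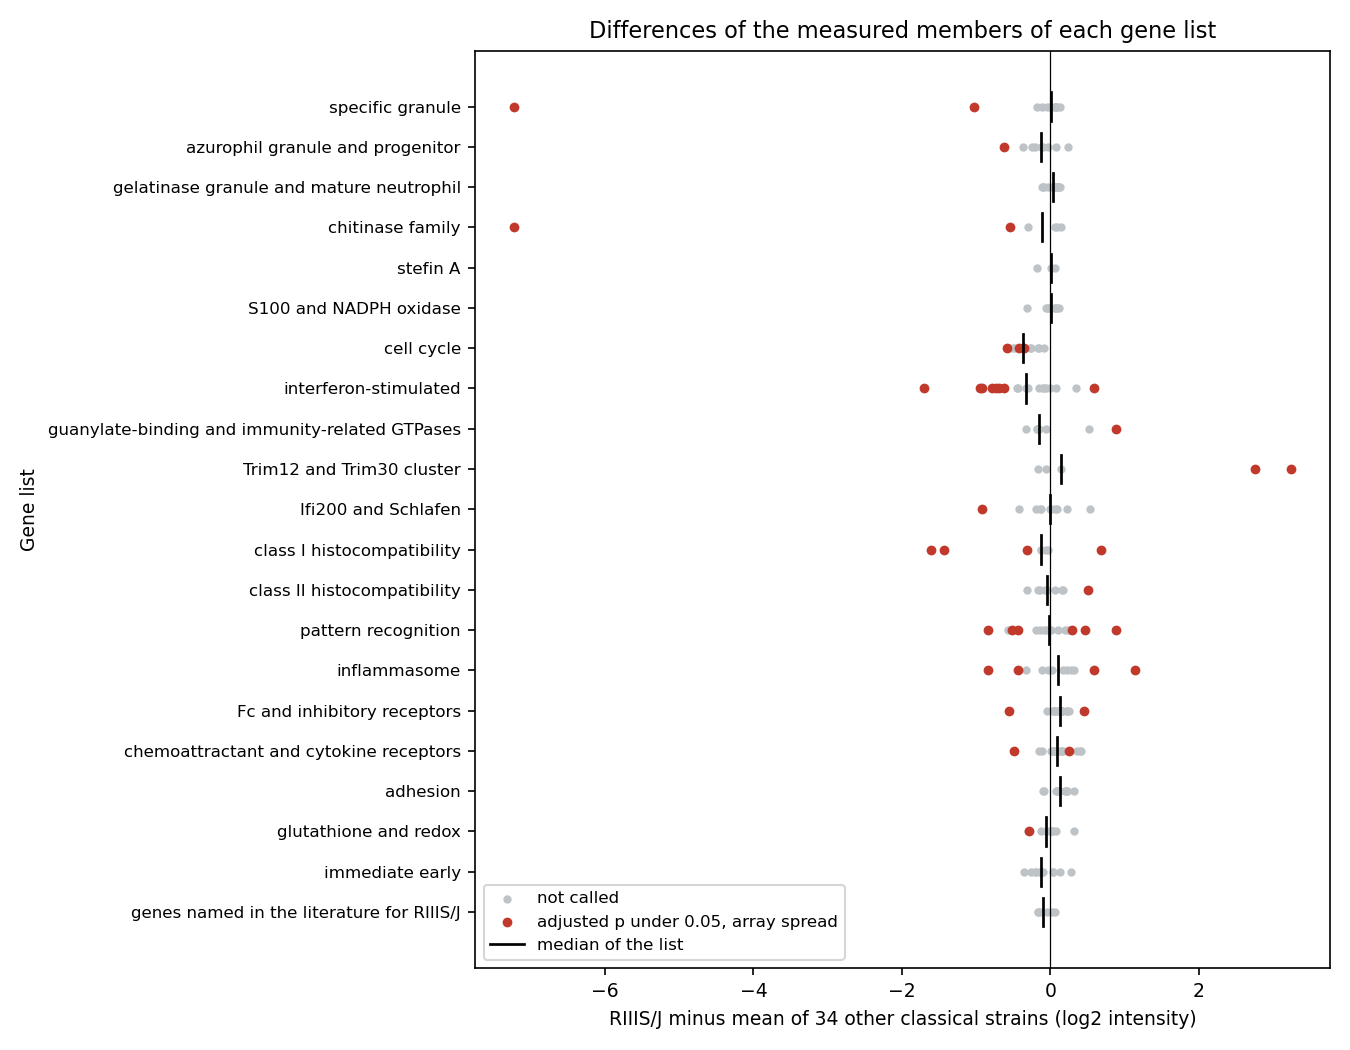
Difference of RIIIS/J from the mean of the 34 other classical strains in log2 intensity units on the x axis for every measured member of the 21 gene lists on the y axis, with a bar at each list's median. Red points passed the array test at an adjusted p under 0.05 and grey points did not, and Chil3 at -7.22 lies far left of the others.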

How the data were processed

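The authors deposited 1 intensity per probe set and array, taken here as linear from the range of the values; per the submitters' processing notes the authors used Affymetrix Power Tools and RMA, without versions. The genome build is not given in the sources used here. RNA was extracted with TriZol, per the labels. Values were converted here to log2 intensity from the deposited table and not scaled further.

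Probe sets with 1 symbol were named through the platform's table (21425 of 24922), each gene by its brightest probe set (19752 genes, 19677 in the GRCm38.p6 gene table). In R 4.3.3 with limma 3.58.1, lmFit and eBayes were run on 35 group means (strain as replicate, 33 residual degrees of freedom) and on 71 classical arrays with 1 mean per group (array spread, 36), with Benjamini-Hochberg adjustment over all probe sets. The code was tested on simulated data. The precision is limited by the 2 RIIIS/J arrays.

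Named genes were up to 15 per direction past the strain test, with both arrays beyond the other group means and at least 7 log2 units on the higher side, 8 more per direction past the array test, 4 per list, 3 known extremes (Chil3, Gdpd3, Olfml2b), the genes known for RIIIS/J, and runs of at least 3 called of 5 neighbours. The rule for runs named only Clec4a1, Clec4a3 and Clec4a4, and the other stretches were laid around genes already seen as called. The members and lists were chosen with earlier results of these data known. Alternatives changed normalization, filters, groups, variance prior, weights and arrays.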

Additional observations from a re-analysis of the deposited data

Results flagged for a closer look

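The 5 wild-derived strains took no part in the comparison, and at some of the genes called with the strain as the replicate their group means lay beyond all 34 other classical strains on the side of RIIIS/J. Catspere2 averaged 8.28 log2 units in PWD/PHJ and 5.53 in MSM/Ms, beside 8.01 in RIIIS/J. Cd200r2 averaged 6.22 in JF1/Ms, 6.45 in MSM/Ms and 6.49 in WSB/EiJ, beside 7.10 in RIIIS/J. Cd22 averaged 7.09 in MSM/Ms and Zmym6 averaged 7.68 in MSM/Ms, beside 7.27 and 8.09 in RIIIS/J. Zmpste24 was low in MSM/Ms, with 10.05, and in PWD/PHJ, with 9.82, beside 9.40 in RIIIS/J. These means were set beside the classical range without a test.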

How the results depend on the processing

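No named gene's difference changed sign while called, but splits turned with the setting. The strain test's 29 calls became 6 among those of mean intensity 7 or more (2 higher and 4 lower, against 23 and 6; 5 of them with a difference of at least 1), and 19 (15 higher, 14 with a difference of at least 1) with the mean of a gene's probe sets, where fewer features were tested. With 1 RIIIS/J array it gave 44 to 55 calls (30 to 35 higher, 14 to 20 lower, 28 to 29 with a difference of at least 1); 28 of the 29 remained without replicate 1 and 26 without replicate 2. Adding the wild-derived strains left 3 lower calls and 22 of the 29. Leaving out each other strain in turn gave 28 to 35 calls (23 to 28 higher, 5 to 7 lower, 23 to 29 with a difference of at least 1). The array test's 135 calls became 88 (36 higher and 52 lower, against 74 and 61) at a mean of 7 or more. RIIIS/J was highest at 544 and lowest at 1035 probe sets, but lowest at 586 after quantile normalization (566 highest), 633 with a common array median (839 highest) and 164 at a mean of 7 or more (399 highest); it was highest at 348 with wild-derived strains added, and at 685 to 893, and lowest at 1424 to 2326, with 1 RIIIS/J array.

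Zmpste24 (adjusted p of 0.0937 in limma) and Cd22 (0.305) lost their call with wild-derived strains added, and Clec4a1 gained one without the groups of conflicting labels (0.0463) or RIIIS/J replicate 1 (0.0321). Deviations of arrays from their group mean were correlated between same-numbered arrays of RIIIS/J and of 31 other groups with 2 arrays. The correlations ran from -0.18 to 0.20 with a median of 0.00, and 9 were above 0.1. They do not settle whether the replicate numbers pair samples. With the replicate number as a block, the array test gave 136 calls and kept all 135. The median difference over genes was -0.03, and 0.02 with a common array median. The cause of these changes was not tested.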
